A study of Mus musculus with 6 samples.

Results

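The genes described here are the members of the STAT family of transcription factors named Stat2, Stat3, Stat4, Stat5a, Stat5b and Stat6. They were chosen by name, and all 6 were found among the 23393 genes of the deposited table. A further member of the family is not analysed here. Poly(A) RNA was sequenced from 6 libraries of mouse helper T cells, 3 of each of 2 genotypes. Naive CD4 T cells of the C57BL/6 strain were activated by plate-bound antibodies to CD3 and CD28. IL-6, IL-1b and IL-23 were added to the culture, which lasted 2 days, conditions that yield the interleukin-17-producing cells called pathogenic Th17 cells. The first genotype is Stat3CSTOPfl/fl CD4-Cre, called Stat3C below, and the second is Stim1fl/fl Stat3CSTOPfl/fl CD4-Cre, called Stim1KO Stat3C. Both carry Stat3C, a constitutively active form of STAT3 that is made once Cre recombinase, expressed from the Cd4 promoter in developing T cells, removes a stop cassette. Only the second has floxed Stim1 as well. STIM1 protein lies in the membrane of the endoplasmic reticulum, and when calcium there runs low it gates ORAI channels that let calcium into the cell. The labels give no age, and they do not say whether replicates came from separate mice. The p-values thus measure the spread between these libraries, which may be technical in part.

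STAT proteins wait in the cytoplasm until a cytokine binds its receptor. Janus kinases on the receptor chains then phosphorylate them, and they pair up, enter the nucleus and bind DNA. In helper T cells each member answers to different cytokines: STAT2 to type I interferon, STAT3 to IL-6, IL-21 and IL-23, STAT4 to IL-12, STAT5A and STAT5B to IL-2 and IL-7, and STAT6 to IL-4. STAT3 is needed for the Th17 program, STAT4 for the Th1 program and STAT6 for the Th2 program, while STAT5 restrains Th17 differentiation. All values below are transcript levels and do not measure phosphorylation.

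In Stim1KO Stat3C the mean of Stat4 fell by 38.0%, that of Stat5a fell by 17.9%, that of Stat5b fell by 15.5% and that of Stat6 fell by 15.3%. Stat3 differed by less than the spread between libraries. Stat2 was 41.8% higher in mean, but its groups overlapped and it did not pass the test. The values are normalised read counts, that is, reads of a gene scaled by each library's size factor. Each gene was tested with limma on log2(count + 1), and p-values were adjusted over all 11947 genes with a mean of at least 10, with 0.05 as the threshold. By that rule 4 of the 6 members fell and none rose. Over all genes tested 13.6% passed the threshold, 4.96% as lower and 8.62% as higher, and the median log2 fold change was -0.0011. The groups did not overlap for the same 4 members, against 35.6% of all genes tested, or 16.4% with Stim1KO Stat3C as the lower group. Fewer cells of a type and less RNA per cell cannot be told apart in such bulk samples.

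**Figure D1:**
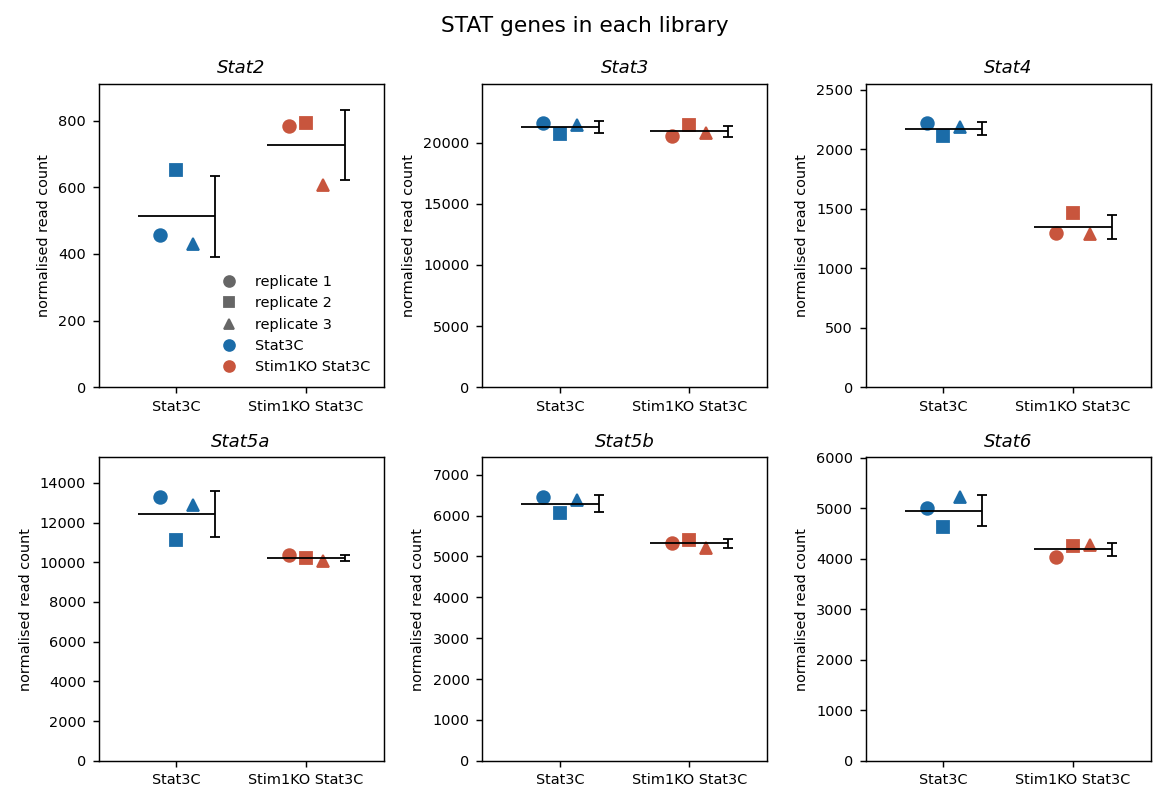
Normalised read count of each STAT gene in each of the 6 libraries, with 1 panel per gene, each vertical axis starting at 0, points for libraries and lines for group means. For Stat4, Stat5a, Stat5b and Stat6 every Stim1KO Stat3C library lies below every Stat3C library, whereas the groups overlap for Stat3 and Stat2.

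Depth ranged 3.21-fold, from 16009755 to 51347367 reads per library. It differed with the genotype, with 23092044 to 51347367 reads in Stat3C and 16009755 to 22519269 in Stim1KO Stat3C. Every Stim1KO Stat3C library was thus shallower than every Stat3C library, and the part of depth in the results was not tested. The least covered member, Stat2, still had 443 reads in its lowest library. Stim1 itself had 1999, 1969 and 1931 normalised counts in Stat3C, against 811, 794 and 687 in Stim1KO Stat3C, lower in all 3 as labelled (log2 fold change -1.37, limma, adjusted p = 0.000287), although the count covers the whole gene and not the floxed part alone. The summed helper T cell markers were at 37146 to 42561 in Stat3C and 50467 to 54524 in Stim1KO Stat3C, with 4 of 5 past the threshold as higher. The summed Th17 markers were at 14436 to 19057 and 4616 to 5449, with 3 of 6 past the threshold as lower (among them Il17a and Il17f), and these 2 genes make up most of the sum. Of the others Rora (log2 fold change -0.12) and Ccr6 (-0.05) overlapped between the groups. Stat3C replicate 2 stood apart. Its smallest root-mean-square log2 distance to any other library was 0.764, whereas the other libraries lay at most 0.532 from those of their own group. In each group replicate 3 had Xist at a high level (8362 and 11549) and genes of the Y chromosome at or near 0, and the other replicates the reverse, so both genotypes held the same number of libraries of each pattern.

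Markers of other cell types were low, and those of CD8 T cells and some of those of B cells passed the threshold. The summed markers of CD8 T cells, Cd8a and Cd8b1, were at 277 to 453 in Stat3C and at 111 to 159 in Stim1KO Stat3C, with 2 of 2 past the threshold as lower. Those of B cells were at 134 to 381 and 32.2 to 63.0, with 2 of the 5 that could be tested lower (the rest of the 6 fell under the filter), and Ms4a1, which encodes CD20 and was under the filter, was at 23.4, 8.56 and 24.2 in Stat3C and at 0 in every Stim1KO Stat3C library. Those of natural killer cells were at 31.0 to 32.2 and 111 to 281, a difference that comes from Eomes, which activated T cells also express and which was the only 1 of the 5 above the filter. The others, among them Ncr1 (means of 3.14 and 3.10), were low in both genotypes. Those of myeloid cells were at 18.4 to 175 and 19.2 to 39.8, with neither of the 2 tested past the threshold, the other 4 under the filter, and the highest value in Stat3C replicate 2. CD8 T cells and natural killer cells express Stat4, and B cells express Stat6. The part of these cells in the results below was not tested.

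Stat3 encodes the factor that the Stat3C allele supplies in active form, and it was the most abundant member. It had 21592, 20685 and 21485 normalised counts in Stat3C, against 20583, 21441 and 20810 in Stim1KO Stat3C. The groups overlapped, and their means were 21254 ± 496 and 20945 ± 445 (SD, n = 3). The log2 fold change was -0.02 (SE 0.05, 95% interval -0.13 to 0.08, limma, adjusted p = 0.782). With 15030 reads or more in every library, counting error was at most 0.816%. The count does not tell transcripts of the Stat3C allele from those of the normal gene, and the balance between them was not measured.

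Stat4 encodes the factor that carries the IL-12 signal toward interferon-γ production. Its counts were 2220, 2113 and 2190 in Stat3C, against 1293, 1461 and 1289 in Stim1KO Stat3C. The lowest Stat3C library was far above the highest Stim1KO Stat3C library, and the means were 2174 ± 55.0 and 1348 ± 98.6 (SD, n = 3). Stat4 fell by 0.69 on the log2 scale (SE 0.07, 95% interval -0.85 to -0.54, limma, adjusted p = 0.00158). This change lay at percentile 4.48 of the log2 fold changes of all genes tested. Leaving out any 1 library kept the call, with log2 fold changes of -0.75 to -0.66 and adjusted p of 0.000198 to 0.0128. Without replicate 3 of both groups it was -0.66 with an adjusted p of 0.0515.

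The Stat4 gene lies on chr1:51987148-52107189 (GRCm38, plus strand). It overlaps the gene model Gm28177 on the same strand over 29929 bases, and 21.7% of the 50-base words in its exons also occur in that model. Gm28177 has no row of its own under that name in the table, and which gene models served for counting is not given in the sources used. RefSeq gives more than 1 start for Stat4, and the 250 bases before its upstream start, chr1:51986898-51987147 on the plus strand (RefSeq, GRCm38.p6), are shown because Stat4 had the largest log2 fold change of the members that passed.
Stat4 upstream start: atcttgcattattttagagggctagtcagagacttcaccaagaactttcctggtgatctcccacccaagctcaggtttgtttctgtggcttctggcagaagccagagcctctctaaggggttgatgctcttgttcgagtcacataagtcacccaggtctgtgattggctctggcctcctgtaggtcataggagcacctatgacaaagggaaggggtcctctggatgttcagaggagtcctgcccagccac
Neither the usual STAT site, TTC and GAA with any 3 bases between them, nor the form with 4 bases between them that STAT6 prefers was found in these letters. The search took both strands of the 250 bases before each start. Of 32536 mouse promoters of that length, 7.04% hold the first motif and 5.89% the second, and none of the 7 windows of Stat4, Stat5a, Stat5b and Stat6 holds either.

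Stat5a and Stat5b encode a pair of closely related proteins that act downstream of IL-2. Stat5a had 13287, 11128 and 12891 normalised counts in Stat3C, against 10368, 10198 and 10050 in Stim1KO Stat3C. The groups did not overlap, but Stat3C replicate 2 lay near the Stim1KO Stat3C libraries. The means were 12436 ± 1150 and 10206 ± 159 (SD, n = 3), and Stat5a fell by 0.28 on the log2 scale (SE 0.07, 95% interval -0.44 to -0.12, limma, adjusted p = 0.0355). Stat5b had 6455, 6051 and 6370 normalised counts in Stat3C, against 5334, 5412 and 5208 in Stim1KO Stat3C. Its groups were tighter, with means of 6292 ± 213 and 5318 ± 103 (SD, n = 3). Stat5b fell by 0.24 on the log2 scale (SE 0.05, 95% interval -0.35 to -0.13, limma, adjusted p = 0.0161).

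The calls of the Stat5 pair were less firm than their direction. Leaving out 1 library gave Stat5a log2 fold changes of -0.36 to -0.23. Its call was lost in 5 of 6 such fits, with adjusted p of 0.135 without Stat3C replicate 1, 0.133 without Stat3C replicate 3, and 0.0974, 0.106 and 0.0882 without Stim1KO Stat3C replicates 1, 2 and 3. Stat5b had -0.27 to -0.22 and lost its call in 4 of 6, with adjusted p of 0.0860 without Stat3C replicate 1, 0.0744 without Stat3C replicate 3, and 0.0542 and 0.0520 without Stim1KO Stat3C replicates 1 and 2. In these fits fewer of all genes passed too, 5.16% to 9.58% in place of 13.6%. Without Stat3C replicate 2 the share was 24.9%, and that fit gave the lowest adjusted p of the leave-one-out fits for both genes, 0.000962 for Stat5a and 0.00516 for Stat5b.

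The balance within the pair did not differ beyond the spread. The ratio of Stat5a to Stat5b counts was 2.06, 1.84 and 2.02 in Stat3C, against 1.94, 1.88 and 1.93 in Stim1KO Stat3C, a log2 difference of -0.04 (exact permutation test, two-sided, p = 0.5, adjusted over 3 ratios p = 0.5). Their exons share 608 words of 50 bases, 8.21% of those of Stat5a and 10.98% of those of Stat5b, so some reads can fit either gene.

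Stat5b, Stat5a and Stat3 lie side by side on chromosome 11. Stat5b is at chr11:100780731-100850724 on the minus strand, Stat5a at chr11:100859351-100885169 on the plus strand and Stat3 at chr11:100885098-100939540 on the minus strand. The Stat5 genes point away from each other across 8626 bases with no coding gene between them, and the ends of Stat5a and Stat3 overlap by 72 bases on opposite strands. The Stat3 count did not change beyond its spread, whereas that of its neighbour Stat5a fell. Because the Stat3 count can include transcripts of the Stat3C allele, it does not tell how the normal Stat3 gene at this place changed. Among the nearest tested genes on either side, named for their position after their values were seen, Kat2a had a log2 fold change of -0.29 (limma, adjusted p = 0.0248). Ghdc, Rab5c, Atp6v0a1, Naglu and Coasy did not pass the threshold, with log2 fold changes from -0.20 to 0.30.

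Before a downstream RefSeq start of each gene of the Stat5 pair lies a shared block, shown because the genes fell together. It covers chr11:100860418-100860472 on the plus strand for Stat5a and chr11:100822573-100822627 on the minus strand for Stat5b (RefSeq, GRCm38.p6). It was the best-scoring alignment over all pairs of Stat5a and Stat5b windows. Both starts lie inside the annotated genes, and the windows before the upstream starts do not hold the block. Capitals mark the bases that are the same in both.
Stat5a shared block: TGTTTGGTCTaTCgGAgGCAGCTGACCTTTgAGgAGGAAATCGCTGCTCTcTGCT
Stat5b shared block: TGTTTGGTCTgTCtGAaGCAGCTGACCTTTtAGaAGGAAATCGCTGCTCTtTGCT
Of its 55 bases 49 are the same (89.1%). It begins 66 bases before the downstream Stat5a start and 57 bases before the downstream Stat5b start.

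Stat6 encodes the factor that carries the IL-4 signal toward Th2 cytokines. Its counts were 5006, 4620 and 5225 in Stat3C, against 4045, 4258 and 4274 in Stim1KO Stat3C. The groups did not overlap, and the means were 4950 ± 306 and 4192 ± 128 (SD, n = 3). Stat6 fell by 0.24 on the log2 scale (SE 0.06, 95% interval -0.38 to -0.10, limma, adjusted p = 0.0360). Leaving out 1 library gave log2 fold changes of -0.29 to -0.20. The call was lost in 5 of 6 such fits, with adjusted p of 0.133 and 0.137 without Stat3C replicates 1 and 3 and 0.117, 0.0918 and 0.0685 without Stim1KO Stat3C replicates 1, 2 and 3. The call was kept without Stat3C replicate 2 (adjusted p = 0.00559).

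Stat6 is at chr10:127642986-127660957 on the plus strand, and its end overlaps that of Nab2, on the minus strand, by 40 bases. Stat2 lies on the same chromosome and strand, at chr10:128270559-128292849, 609601 bases away with 26 coding genes between. The 250 bases before the Stat6 start, chr10:127642736-127642985 on the plus strand (RefSeq, GRCm38.p6), are shown as the promoter of the member that fell together with the Stat5 pair, and they hold neither STAT motif.
Stat6 upstream: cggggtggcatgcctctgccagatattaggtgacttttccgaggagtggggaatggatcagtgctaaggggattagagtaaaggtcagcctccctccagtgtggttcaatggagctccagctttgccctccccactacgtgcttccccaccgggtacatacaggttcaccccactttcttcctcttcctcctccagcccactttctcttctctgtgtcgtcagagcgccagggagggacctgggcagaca

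**Figure D2:**
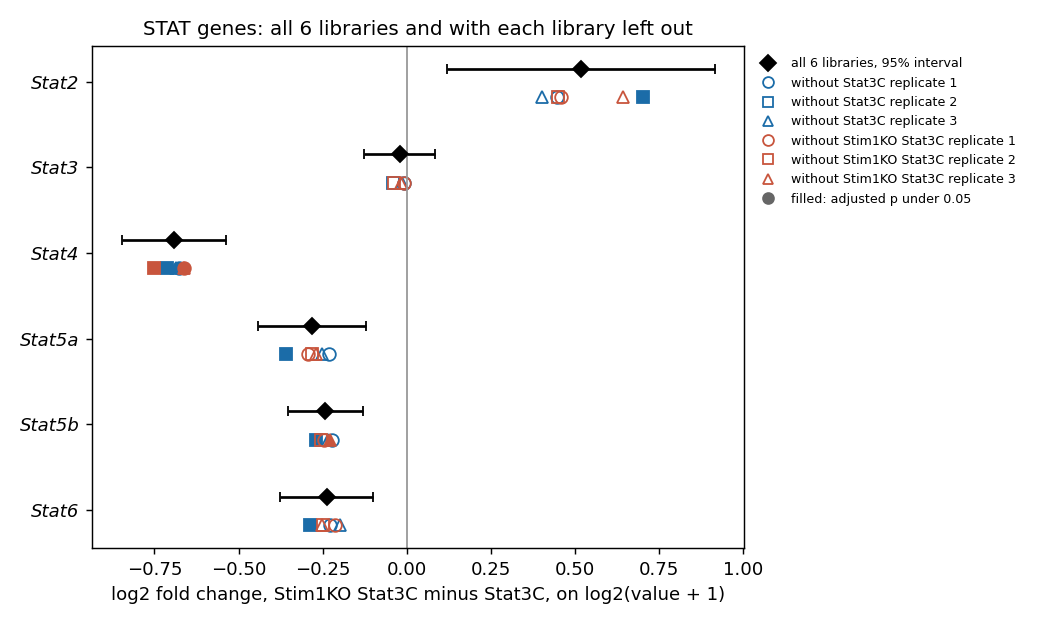
Log2 fold change (Stim1KO Stat3C minus Stat3C) of each STAT gene with all 6 libraries, with its 95% interval, and with each library left out in turn. Stat4 stays between -0.75 and -0.66, Stat5a, Stat5b and Stat6 lie between -0.36 and -0.20, Stat3 stays next to 0, and Stat2 moves most, up to 0.70 without Stat3C replicate 2.

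Stat2 encodes the partner that, together with IRF9, carries the type I interferon signal. It was the least abundant and the most variable member, with a coefficient of variation of 23.6% in Stat3C and 14.5% in Stim1KO Stat3C. Its counts were 458, 652 and 429 in Stat3C, against 783, 792 and 606 in Stim1KO Stat3C. Stat3C replicate 2, at 652, lay above Stim1KO Stat3C replicate 3, so the groups overlapped. The means were 513 ± 121 and 727 ± 105 (SD, n = 3), with a log2 fold change of 0.52 (SE 0.17, 95% interval 0.12 to 0.92, limma, adjusted p = 0.0863). Without Stat3C replicate 2 it was 0.70 and passed the threshold (adjusted p = 0.00337). It also passed, at 0.52, with the Xist pattern of the libraries as a term (adjusted p = 0.0414), a fit added after the data were seen.

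Most interferon-induced genes were highest in Stat3C replicate 2, the Stat3C library with the most Stat2. The summed count of 18 genes whose induction by type I interferon needs STAT2 was 2832, 6012 and 2731 in Stat3C, against 4396, 4333 and 3882 in Stim1KO Stat3C. Of the 17 that passed the filter on low values, 14 had their highest value in Stat3C replicate 2. The share of all genes with their highest value in that library, which stood apart from the others, was not counted. Whether 14 exceeds that share is thus not known. Within each group the library with the least Stat2 was also the one with the lowest sum. However, Bst2, named after its values were seen, and Zbp1 made up most of the sum in every library but Stat3C replicate 2. Without these genes the lowest sum in Stat3C would be that of replicate 1, which did not have the least Stat2. Only Zbp1, a sensor of nucleic acids that can trigger cell death, passed the threshold. It had 693, 1178 and 603 counts in Stat3C, against 1590, 1789 and 1491 in Stim1KO Stat3C (log2 fold change 1.03, limma, adjusted p = 0.0209). Leaving out Stat3C replicate 1 or 3 or any 1 Stim1KO Stat3C library ended that call (adjusted p = 0.0533 to 0.0836). Irf9, named after its values were seen, had means of 686 ± 95.8 and 739 ± 27.4 (SD, n = 3), with a log2 fold change of 0.12 (limma, adjusted p = 0.492). The part of Stat3C replicate 2 in the difference of Stat2 is given by the value without it above, and what set that library apart was not tested.

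**Figure D3:**
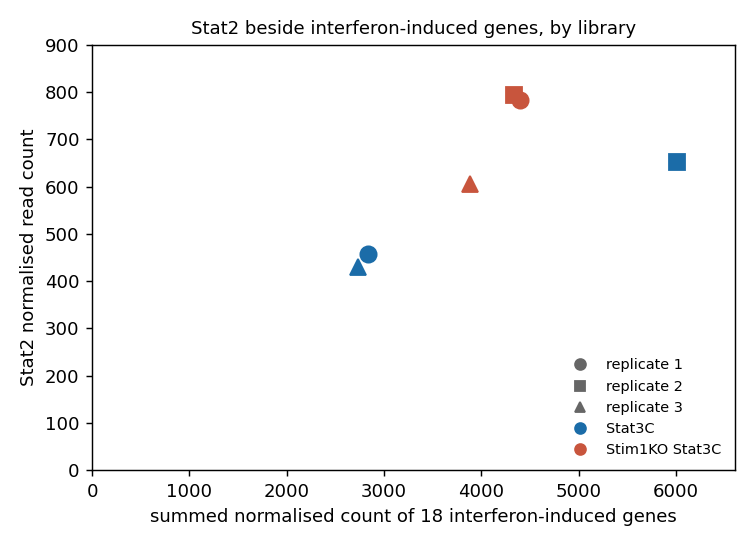
Stat2 normalised read count (vertical axis) against the summed normalised count of 18 interferon-induced genes (horizontal axis), 1 point per library, with colours for the genotype and shapes for the replicate. Stat3C replicate 2 has the highest sum, 6012, with 652 Stat2 counts, and the other Stat3C libraries have the lowest values of both. Bst2 and Zbp1 make up most of the sum in every library but Stat3C replicate 2.

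The interferon motif, GAAA, any 2 bases and GAAA again, is the core of the site that STAT2 with IRF9 binds, and it was searched after these sequences had been seen. It occurs in 2.98% of the 32536 promoters on either strand, in the window of Stat2 and in 1 of the 7 windows of the members that fell, before the downstream start of Stat4. The surrounding 50 bases are shown because they are the motif matches among these promoters, with the match in capitals: chr10:128270256-128270305 for Stat2, where the match reads on the opposite strand and begins 222 bases before the start, and chr1:52008123-52008172 for Stat4, where it begins 97 bases before the start (plus strand, RefSeq, GRCm38.p6).
Stat2 interferon motif: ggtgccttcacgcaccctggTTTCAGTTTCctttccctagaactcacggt
Stat4 downstream start: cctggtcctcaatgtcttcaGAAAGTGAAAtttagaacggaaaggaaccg
A match describes the letters and does not show that a factor binds there. The Stat2 window also holds TTC and GAA with 4 bases between them.

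Levels of different genes were compared per kb of annotated exon. For Stat3 the length is that of the normal gene, while the count can include transcripts of the Stat3C allele in both genotypes. Its place in the order thus does not describe the normal gene alone. In Stat3C, Stat3 had 2231 ± 52.0 normalised counts per kb, Stat5a 1743 ± 161, Stat5b 1136 ± 38.4, Stat6 1125 ± 69.5, Stat4 562 ± 14.2 and Stat2 86.5 ± 20.4 (SD, n = 3). In Stim1KO Stat3C, Stat3 had 2198 ± 46.7 counts per kb, Stat5a 1431 ± 22.3, Stat5b 960 ± 18.6, Stat6 952 ± 29.0, Stat4 348 ± 25.5 and Stat2 123 ± 17.7 (SD, n = 3). The order was the same in both genotypes, and of the neighbours in it only Stat5b and Stat6 overlapped over libraries. With the longest transcript as the length, Stat6 came before Stat5b. The step from Stat4 to Stat2, 6.49-fold in Stat3C, was 2.84-fold in Stim1KO Stat3C.

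**Figure D4:**
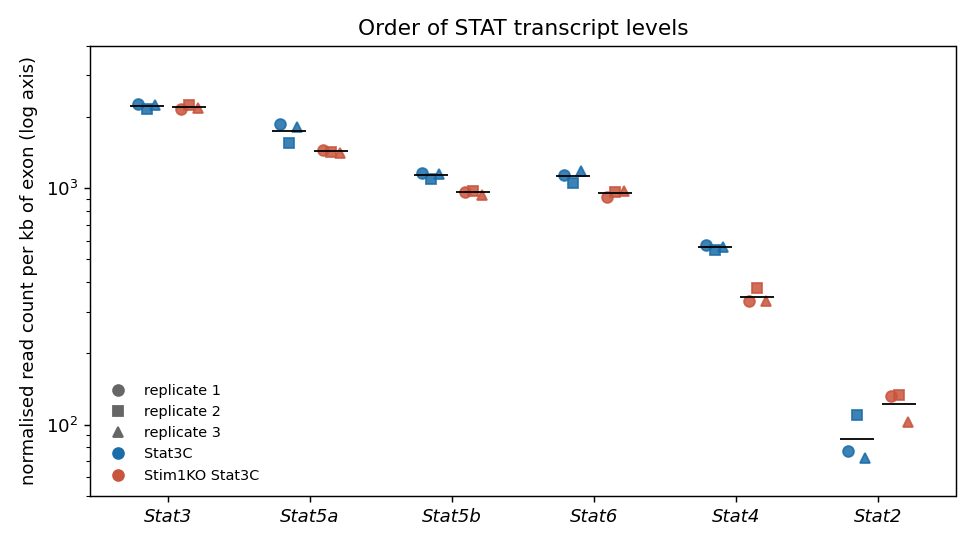
Normalised read count per kb of exon (log axis) for each STAT gene in the order of its mean, with points for libraries, shapes for replicates, colours for genotypes and lines for group means. Stat3 is highest and Stat2 lowest in every library, Stat5b and Stat6 overlap, and the gap between Stat4 and Stat2 is narrower in Stim1KO Stat3C.

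As a share of the summed level per kb of the 6 genes, Stat3 made up 32.4% ± 0.711 in Stat3C and 36.6% ± 0.287 in Stim1KO Stat3C (SD, n = 3). Stat4 made up 8.10%, 8.36% and 8.04% in Stat3C, against 5.60%, 6.15% and 5.60% in Stim1KO Stat3C. The share of Stat2 was 1.27% ± 0.362 and 2.04% ± 0.276 (SD, n = 3). Ratios within a library do not depend on its scaling. These shares and ratios use a Stat3 count that can include transcripts of the Stat3C allele, so they do not describe the normal gene alone. Stat4 counts were 0.103, 0.102 and 0.102 of those of Stat3 in Stat3C, against 0.0629, 0.0682 and 0.0620 in Stim1KO Stat3C, a log2 difference of -0.67. The ratio of Stat6 to Stat3 was 0.232, 0.223 and 0.243 in Stat3C, against 0.197, 0.199 and 0.205 in Stim1KO Stat3C, a log2 difference of -0.22. Neither ratio overlapped between groups. Each gave p = 0.1 by exact permutation (two-sided), the smallest that 3 against 3 libraries allow, and 0.15 adjusted over the 3 ratios.

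The genes closest in pattern to each member that fell were found among 10245 genes with a mean of at least 50, by the root-mean-square distance of centred log2 values over the 6 libraries. For Stat4 they were Evl, which encodes a regulator of actin, at 0.0614 and Pim2, which encodes a survival kinase, at 0.0815. The nearest to Stat5a were Rcl1 (0.0261) and Mrps10 (0.0304), which act in the making of ribosomal RNA and in the mitochondrial ribosome. Stat5b lay nearest to Ivd (0.0164) and Hsd17b4 (0.0202), which encode enzymes of leucine breakdown and of peroxisomal fatty acid oxidation. Nearest to Stat6 were Cdc20 (0.0160), an activator of the anaphase-promoting complex, and Tbrg4 (0.0162), which acts on mitochondrial RNA. Stat5b and Stat6 were 0.0455 apart and Stat5a and Stat5b 0.0559, whereas Stat4 was 0.222 from Stat5a and 0.648 from Stat2. These distances describe 6 libraries that share their genotypes, and a short distance also follows from a small change.

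Upstream of the STAT proteins, several receptor chains and 2 Janus kinases rose, in the libraries in which 4 STAT genes fell. Of the 94 tested genes of the pathway, in lists ordered here by role, 27 were higher (28.7%) and 6 lower (6.38%), with a median log2 fold change of 0.26, against 8.62% higher and 4.96% lower over all genes tested. Without Stat3C replicate 2 the number of higher genes was 42, in a fit in which 24.9% of all genes passed in place of 13.6%. The lists were drawn up with earlier results of these data known.

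Among the Janus kinases 2 of 4 rose and none fell, with a median of 0.24. Jak3, which serves the common gamma chain used by IL-2, IL-4 and IL-7, rose from 7748 ± 50.5 to 9950 ± 694 counts (SD, n = 3), a log2 fold change of 0.36 (limma, adjusted p = 0.00789). Tyk2, which serves interferon and IL-12 receptors, rose from 1544 ± 97.9 to 1932 ± 200 (log2 fold change 0.32, limma, adjusted p = 0.0454). Its call was kept only without replicate 2 of Stat3C or replicate 3 of Stim1KO Stat3C, and the other 4 left-out libraries ended it (adjusted p = 0.106 to 0.155).

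Of 9 receptor chains listed under the gp130 and IL-12 families, 4 rose and none fell, with a median of 0.42. The list also holds chains outside those families. These are Il21r, whose product pairs with the common gamma chain, and the IL-10 receptor chains Il10ra and Il10rb. Of the 4 that rose, only Il12rb1 and Il27ra are of the gp130 and IL-12 families. Il21r went from 6887 ± 206 to 10836 ± 408 counts (log2 fold change 0.65, limma, adjusted p = 0.000564). Il12rb1, the chain shared by the receptors for IL-12 and IL-23, went from 5020 ± 314 to 6816 ± 39.7 (0.44, adjusted p = 0.00309). Il27ra also rose (0.58), as did Il10ra (0.65), named to complete the count. The chains that complete these receptors, named after their values were seen, did not pass the threshold. Il12rb2, of the IL-12 receptor, had a log2 fold change of 0.42 with overlapping groups (limma, adjusted p = 0.132). Il23r, of the IL-23 receptor, had the largest difference of the list, with 375, 423 and 333 counts in Stat3C, against 275, 173 and 95.5 in Stim1KO Stat3C (-1.17, limma, adjusted p = 0.0529), and its groups did not overlap. Of the common gamma chain family, listed without Il21r, 3 of 7 rose and none fell, with a median of 0.58. Il2ra, which encodes CD25 of the IL-2 receptor, went from 36902 ± 663 to 54983 ± 287 (0.58, adjusted p = 0.000564), Il2rb rose by 0.74 and Il7r by 0.97. The call of Il7r was lost without Stim1KO Stat3C replicate 1 or 2 (adjusted p = 0.0580 and 0.0559). Of 4 interferon receptor chains 1 fell and none rose: Ifngr2, which signals for interferon-γ, went from 394 ± 13.2 to 272 ± 24.6 (-0.54, adjusted p = 0.0143). Leaving out replicate 1 or 3 of Stat3C, or replicate 1 or 2 of Stim1KO Stat3C, ended the call (adjusted p = 0.0528 to 0.0669).

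Among the inhibitors only a pair of SOCS genes passed the threshold. Of 8 SOCS family genes, which encode feedback inhibitors of cytokine receptors, 2 rose and none fell, with a median of 0.12. Socs2 had 157, 213 and 179 counts in Stat3C, against 1511, 998 and 754 in Stim1KO Stat3C (log2 fold change 2.52, limma, adjusted p = 0.00147). Cish rose from 3719 ± 378 to 5647 ± 558 (0.60, adjusted p = 0.00618). None of 4 PIAS genes passed the threshold with limma, edgeR or DESeq2, and 1 had an unadjusted p under 0.05. The most abundant, Pias2, had a log2 fold change of -0.21. None of 5 tyrosine phosphatases acting on JAK or STAT proteins passed with limma, edgeR or DESeq2, and none had an unadjusted p under 0.05. Ptprc, which encodes CD45, had a log2 fold change of 0.08, which turned to -0.013 with library quality weights. Of 5 partners and coactivators 1 rose: Ncoa1, a coactivator that binds STAT6, went from 1014 ± 109 to 1508 ± 140 (0.57, adjusted p = 0.00988).

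Downstream, the target lists did not follow the direction of their STAT gene in a uniform way. For STAT4, which fell in transcript, 6 of 9 Th1 genes rose and none fell, with a median of 0.73. Hlx, a Th1 homeobox factor, went from 69.2 ± 21.4 to 344 ± 61.1 counts (2.33, adjusted p = 0.00165) and Gadd45g from 474, 619 and 543 to 886, 899 and 922 (0.73, adjusted p = 0.00434). For STAT5, whose genes both fell, 6 of 11 genes induced by IL-2 rose, among them Il2ra, Il2rb and Socs2, and 2 fell, with a median of 0.58. The lists overlap: Il2ra, Il2rb, Socs2 and Cish also stand in the receptor and SOCS lists above. Their rise here is not a separate result, and the 27 higher genes count each gene once. The 2 that fell, named to complete the count, were Bcl2, which encodes a survival factor (-0.51), and Lif, which encodes a cytokine (-0.63). For STAT6, 3 of 6 type 2 genes rose and none fell, with a median of 1.55. Il5 rose by 3.43, Il13 by 2.50 and Gata3, the lineage factor of Th2 cells, by 1.14 on the log2 scale. Il13 and Gata3 each lost the call when any 1 library other than Stat3C replicate 2 and Stim1KO Stat3C replicate 3 was left out (adjusted p = 0.0827 to 0.102). For STAT3, whose transcript did not pass the test, 3 of 14 Th17 genes rose and 3 fell, with a median of 0.01. Those that fell included Il17a (-2.78) and Il17f (-1.81), and the 3 that rose were Maf (2.29) and, named to complete the count, Bcl3 (0.40) and Il21 (0.50).

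**Figure D5:**
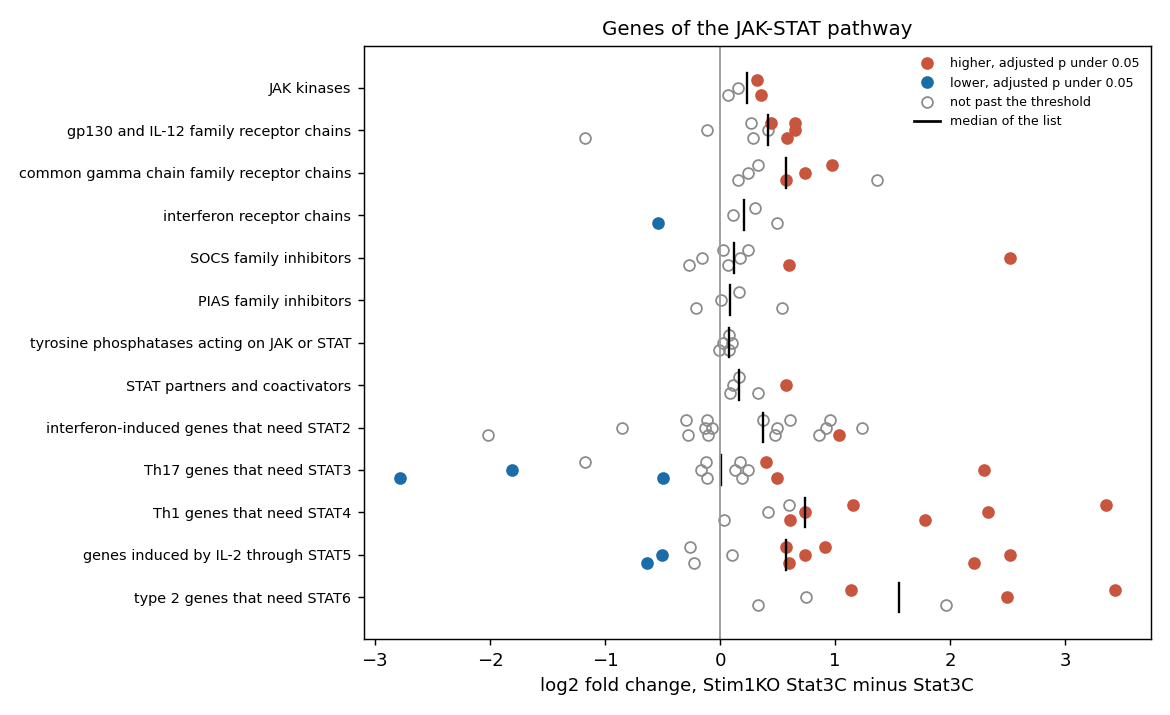
Log2 fold change (Stim1KO Stat3C minus Stat3C) of each tested gene in 13 lists of the JAK-STAT pathway, 1 point per gene, filled where the adjusted p was under 0.05, with a bar at the median of each list. The medians of the receptor, Th1, IL-2 and type 2 lists lie above 0, those of the PIAS and phosphatase lists lie near 0, and the Th17 genes spread to both sides.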

How the data were processed

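Both genotypes had 3 libraries each, made from 100 ng of RNA with a poly(A) kit that keeps the strand, per the labels' protocols. Per the submitters' processing notes, the build was mm10 and the tools were DESeq2 1.22.2, HTSeq 0.11.1 and TopHat2 2.1.1, with no role stated for any. Gene models and the strand setting of the counting are not given in the sources used, so overlapping genes and near-identical copies are uncertain. The values in the deposited table are a normalised signal, taken as read counts that the authors divided by 1 size factor for each library: above 0, 100% of the values of every column were whole multiples (tolerance 0.01) of a single step, 0.433 to 1.37. Division by that step gave back the reads, and 3 reads equal 1.30 to 4.11 normalised counts. Of 23420 rows, 27 whose gene name had become a date (0.186% to 0.217% of the counts) were left out.

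The main test was limma 3.58.1 (R 4.3.3), two-sided, on log2(value + 1), its variance prior following the mean, for genes with a mean of at least 10, with Benjamini-Hochberg adjustment over 11947 genes. No batch or pairing is labelled, and replicates were numbered in accession order. Every pair of libraries differed by at least 8.83 times sampling noise (chi-square per degree of freedom of the recovered reads), so none was counted as a copy. Other settings tried were pseudocount, low-value filter, scaling, variance model, library quality weights, edgeR 4.0.16 and DESeq2 1.42.0 on the recovered reads, and left-out libraries. The fit of edgeR without Stim1KO Stat3C replicate 3, whose step is close to 1, a limma fit with the Xist pattern of each library (above or below 1000) as a term, and the interferon motif were added after the data were seen.

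Named genes are the 6 members, Stim1, from each list the called genes with the smallest adjusted p, at most 3, or else its most abundant gene, and the 2 nearest genes in pattern to each member past the threshold. Exceptions are said where they stand. Some genes of the lists are not reported here by name. Members and lists were chosen with earlier results of these data known. Positions and exon lengths come from GENCODE mouse release 21 (GRCm38). RefSeq promoters were found for all 6 members. The steps were tested on simulated data.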

Additional observations from a re-analysis of the deposited data

How the results depend on the processing

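Over 19 alternatives each member kept the direction of its log2 fold change in every fit. Some of these fits could not change it. No filter, a filter at a mean of 50, no variance trend and the Xist pattern as a term leave the log2 fold change of a member as it was. The number of members past the threshold was 4 at first, where 13.6% of all genes passed. It was 1 without a variance trend (6.92% of all genes) and 1 to 5 with 1 library left out (5.16% to 24.9%). Without replicate 3 of both groups it was 0 (4 of 6 at an unadjusted p under 0.05 with limma, where 0.691% of all genes passed). With edgeR without Stim1KO Stat3C replicate 3 it was 1 (8.28% of all genes). Stat2 (0.52) passed with library quality weights (0.69, adjusted p = 0.00294), DESeq2 (0.49, adjusted p = 0.0380) and the Xist pattern as a term (0.52, adjusted p = 0.0414), and ranged from 0.40 to 0.70 with 1 library left out (adjusted p = 0.00337 to 0.252). Stat5a lost its call with no filter (-0.28, adjusted p = 0.0511). Without a variance trend Stat5a (-0.28, adjusted p = 0.105), Stat5b (-0.24, 0.0639) and Stat6 (-0.24, 0.0996) lost theirs. They also lost them with edgeR without Stim1KO Stat3C replicate 3 (-0.29, -0.24 and -0.27, adjusted p = 0.0947, 0.0535 and 0.0730). Without replicate 3 of both groups the values were -0.66 for Stat4 (adjusted p = 0.0515), -0.24 for Stat5a, -0.22 for Stat5b and -0.21 for Stat6 (0.237, 0.163 and 0.193). With 1 library left out they ranged from -0.36 to -0.23 for Stat5a, -0.27 to -0.22 for Stat5b and -0.29 to -0.20 for Stat6. In fits that leave out libraries fewer samples are tested, and in the other fits the cause was not tested.

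Pathway genes past the threshold as higher, 27 at first, numbered 45 with library quality weights, 19 to 42 with 1 library left out and 6 without replicate 3 of both groups. In those fits 33.1%, 5.16% to 24.9% and 0.691% of all genes passed, against 13.6% at first. Those lower, 6 at first, numbered 5 to 9 with 1 library left out and 3 without replicate 3 of both groups. Of 475 alternative values of the 25 named genes outside the family 46 lost their call and 1 reversed, Ptprc (-0.013 with library quality weights). With the longest transcript as the length the levels in Stat3C were 117 (Stat2), 3518 (Stat3), 729 (Stat4), 3142 (Stat5a), 1207 (Stat5b) and 1311 (Stat6) per kb. No paired analysis was possible because the labels give the genotypes no shared replicate numbers. With the Xist pattern as a term 5 members passed, the same 4 and Stat2, in a fit in which 15.2% of all genes passed. Depth limits Stat2 most, with a counting error of 4.75% in its lowest library.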
